A study of Mus musculus with 8 samples.

Results

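Hepatic expression of 10 genes that make or remove reactive oxygen species was compared between wild-type (WT) mice and mice lacking SIRT7 (SIRT7 KO). The genes were the NADPH oxidase subunits Nox4, Cyba and Cybb, the superoxide dismutases Sod1, Sod2 and Sod3, the catalase gene Cat, and the glutathione peroxidases Gpx1, Gpx3 and Gpx4. They were chosen by name and function, and every probe set that the platform annotation assigns to exactly 1 of these symbols was kept. This gave 17 of the 22626 probe sets tested, covering 10 of 12393 genes. Total liver RNA of 4 WT and 4 SIRT7 KO mice was measured on Affymetrix GeneChip mouse arrays, 1 array for each mouse. SIRT7 is an NAD-dependent deacylase of chromatin, and the labels present mice without it as a model of non-alcoholic steatohepatitis. The labels name the genotype of each mouse but not its age, sex, litter, diet or array batch, so no batch could be checked, and a p-value here reflects how far these 8 samples scatter.

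Reactive oxygen species are made on purpose by NADPH oxidases and as a by-product of respiration and of many other oxidases. NOX enzymes pass electrons from NADPH to oxygen. Superoxide dismutases then turn superoxide into hydrogen peroxide, and catalase, glutathione peroxidases and peroxiredoxins break hydrogen peroxide down. Glutathione peroxidases 1, 3 and 4 are selenoproteins, and glutathione peroxidase 4 is the enzyme that reduces lipid hydroperoxides within membranes and so holds back ferroptosis. In the liver, hepatocytes carry most of the scavenging enzymes, whereas NOX2, encoded by Cybb, is the oxidase of phagocytes.

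The deposited values are log2 expression, so a difference of 1 is a change of 2-fold. Sirt7 itself lay at 8.85 ± 0.19 (SD, n = 4) on the WT arrays and 4.64 ± 0.22 (SD, n = 4) on the SIRT7 KO arrays, with a limma adjusted p of 9.2e-07, as the labels have it. Array medians ran from 6.30 to 6.36. On the second principal component, with 22.6% of the variance, SIRT7 KO arrays 3 and 4 (-24.4 and -19.4) and WT array 4 (-10.7) stood apart from the other 5 arrays (1.52 to 19.0), and the differences of the members that passed or changed sign, and the calls of the other pathway genes, are also given without these 3 arrays. Of 13 measured hepatocyte markers, the albumin gene Alb among them, 0 passed the test in limma (2 at an unadjusted p under 0.05). Of the 13, 12 had a negative difference, and the median was -0.097. The mean log2 level of the 13 was between 14.35 and 14.41 on the WT arrays and between 14.22 and 14.33 on the SIRT7 KO arrays, without overlap.

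Nox4 fell and Gpx4 rose in SIRT7 KO livers, and the other 8 genes did not pass the test. The threshold for a call was a limma adjusted p of 0.15, as in the methods of the study. Of the 17 probe sets, 4 were called, 2 lower (both of Nox4) and 2 higher (both of Gpx4), which is 23.5%, whereas 4.31% of all probe sets were called, 2.39% lower and 1.92% higher. With 1 probe set a gene, the one with the highest mean, 2 of 10 genes were called, beside 4.65% of all genes. The same 4 probe sets were those whose SIRT7 KO and WT values did not overlap, as was the case for 9.35% of all probe sets (5.56% lower and 3.79% higher). The median difference over the 17 probe sets was 0.02, with 9 of 17 positive, and the median over all probe sets was -0.0030. The median size of difference was 0.12 among the members and 0.092 over all probe sets.

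**Figure D1:**
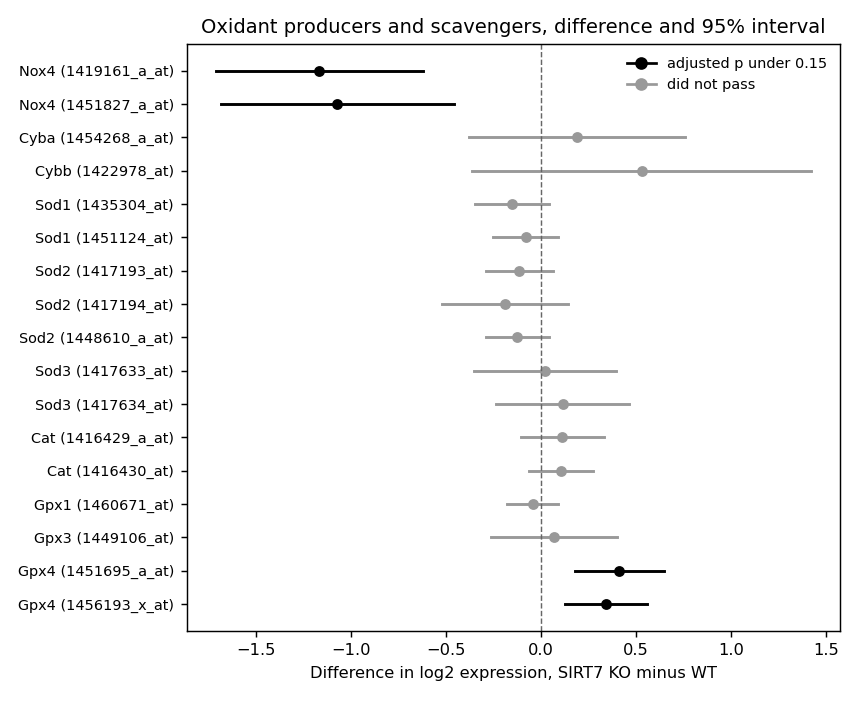
Each of the 17 probe sets (vertical axis) with its log2 difference, SIRT7 KO minus WT, on the horizontal axis. Points are limma estimates from 4 arrays per genotype, lines are 95% confidence intervals, and black marks an adjusted p under 0.15. The intervals of both Nox4 probe sets lie below 0, those of both Gpx4 probe sets lie above 0, and the other 13 intervals include 0.

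The sequences before the transcription start sites of these 2 genes are shown because they are the members that moved. RefSeq (GRCm38.p6) gives windows for 9 of the 10 members. The 250 bases before the start are printed 5′ to 3′ on the strand of the gene, and both genes lie on the plus strand. Nox4 has a single window, at chr7:87246399-87246648. Gpx4 has 4 windows, some of which overlap, and the first is at chr10:80046916-80047165 and the second at chr10:80053315-80053564. Capitals mark matches to the motifs searched, described after the sequences.
Nox4: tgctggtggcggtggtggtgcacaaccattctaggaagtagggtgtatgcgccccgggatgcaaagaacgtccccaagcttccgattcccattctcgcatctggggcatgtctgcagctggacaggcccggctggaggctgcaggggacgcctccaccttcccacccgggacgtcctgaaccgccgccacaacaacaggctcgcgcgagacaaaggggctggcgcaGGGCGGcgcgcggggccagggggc
Gpx4, first start: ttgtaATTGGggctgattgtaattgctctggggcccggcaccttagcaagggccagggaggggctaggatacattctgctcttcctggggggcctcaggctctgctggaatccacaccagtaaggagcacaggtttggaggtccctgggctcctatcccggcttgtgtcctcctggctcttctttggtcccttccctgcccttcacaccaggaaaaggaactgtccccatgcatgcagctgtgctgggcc
Gpx4, second start: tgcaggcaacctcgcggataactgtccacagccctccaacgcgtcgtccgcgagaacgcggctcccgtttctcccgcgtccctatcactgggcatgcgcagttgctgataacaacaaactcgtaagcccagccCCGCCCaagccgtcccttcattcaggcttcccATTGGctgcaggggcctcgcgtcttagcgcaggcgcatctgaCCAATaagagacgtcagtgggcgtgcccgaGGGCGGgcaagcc
The motifs were searched on both strands of these 250 bases. The Sp1 GC box GGGCGG was present in 32.7% of 32851 windows of the same length, and the CCAAT box in 33.8%. The TATA box TATAAA was present in 12.4%, the core of the antioxidant response element TGACNNNGC, at which NRF2 binds, in 10.2%, and the AP-1 site TGANTCA in 6.75%. The E-box CACGTG, a sequence that Myc can bind, was present in 6.02%, and the cAMP response element TGACGTCA in 1.55%. The Nox4 window held 1 GC box, starting 24 bases before the start site, and none of the other motifs. The first Gpx4 window held 1 CCAAT box, and the second held 2 GC boxes and 2 CCAAT boxes. Base composition also differed between them. G and C made up 67.2% of the Nox4 window with 20 CpG dinucleotides, 58.8% of the first Gpx4 window with 2 CpG, and 63.2% of the second Gpx4 window with 24 CpG. Of the 9 members, 7 held a GC box, 6 a CCAAT box, and 1 each a TATA box (Sod1), the antioxidant response core (Sod1) and an AP-1 site (Cybb), while 0 held the E-box or the cAMP response element. A member was counted if any of its windows held the motif, and Gpx4 has 4. The percentages above are of single windows, so the counts and percentages are not in the same unit. In some windows matches of the GC box overlap each other, as in Sod1. The arrays measure RNA and not binding, and a match or its absence is a description of these letters.

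Nox4 encodes an NADPH oxidase that is active without a stimulus and releases mainly hydrogen peroxide. By the probe set 1451827_a_at it was measured at 10.43, 10.11, 9.91 and 10.70 on WT arrays 1 to 4 and at 8.59, 8.89, 9.74 and 9.66 on SIRT7 KO arrays 1 to 4. The lowest WT array lay above the highest SIRT7 KO array, by a narrow margin. The mean was 10.29 ± 0.35 (SD, n = 4) in WT livers and 9.22 ± 0.57 (SD, n = 4) in SIRT7 KO livers, a fall of 2.1-fold, with a difference of -1.07 ± 0.27 (SE, 95% interval -1.68 to -0.46, limma adjusted p = 0.115). By the other probe set, 1419161_a_at, the values were 9.05, 8.75, 8.64 and 9.14 in WT and 7.09, 7.48, 8.22 and 8.13 in SIRT7 KO livers. Here the gap between the groups was wider, and the difference of -1.16 ± 0.24 (SE, 95% interval -1.71 to -0.62, limma adjusted p = 0.069) was a fall of 2.24-fold. Both probe sets read the same RNA of the same mice, so they are 2 readings and not 2 sets of replicates. In both, SIRT7 KO arrays 1 and 2 were the lowest and arrays 3 and 4 lay nearer to WT, and the spread was larger in SIRT7 KO than in WT livers (ranges of 1.13 against 0.496 for 1419161_a_at).

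Gpx4 moved the other way. By the probe set 1451695_a_at it was at 12.31, 12.11, 12.29 and 12.12 on WT arrays 1 to 4 and at 12.82, 12.75, 12.49 and 12.42 on SIRT7 KO arrays 1 to 4. All SIRT7 KO values were above all WT values. The difference was 0.41 ± 0.10 (SE, 95% interval 0.18 to 0.65, limma adjusted p = 0.111), or 1.33-fold, from 12.21 ± 0.11 (SD, n = 4) to 12.62 ± 0.19 (SD, n = 4). The probe set 1456193_x_at, whose suffix marks probes that can also bind other sequences, gave 12.14, 11.96, 12.13 and 11.98 in WT and 12.60, 12.46, 12.31 and 12.21 in SIRT7 KO livers. Its groups did not overlap either, and its difference was 0.34 ± 0.095 (SE, 95% interval 0.13 to 0.56, limma adjusted p = 0.138), or 1.27-fold. Among the SIRT7 KO livers, arrays 1 and 2 were highest in Gpx4 and lowest in Nox4, and arrays 3 and 4 lay closer to WT in both genes. This split was not particular to these genes. On the first principal component of all probe sets, with 28% of the variance, SIRT7 KO arrays 1 and 2 were at 23.9 and 20.0 and SIRT7 KO arrays 3 and 4 at 5.80 and 4.89. WT arrays 1 to 3 were at -6.75, -11.2 and -2.10 and WT array 4 at -34.5, so this component also set WT array 4 apart. With 4 SIRT7 KO arrays a relation between Nox4 and Gpx4 cannot be tested within the genotype.

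**Figure D2:**
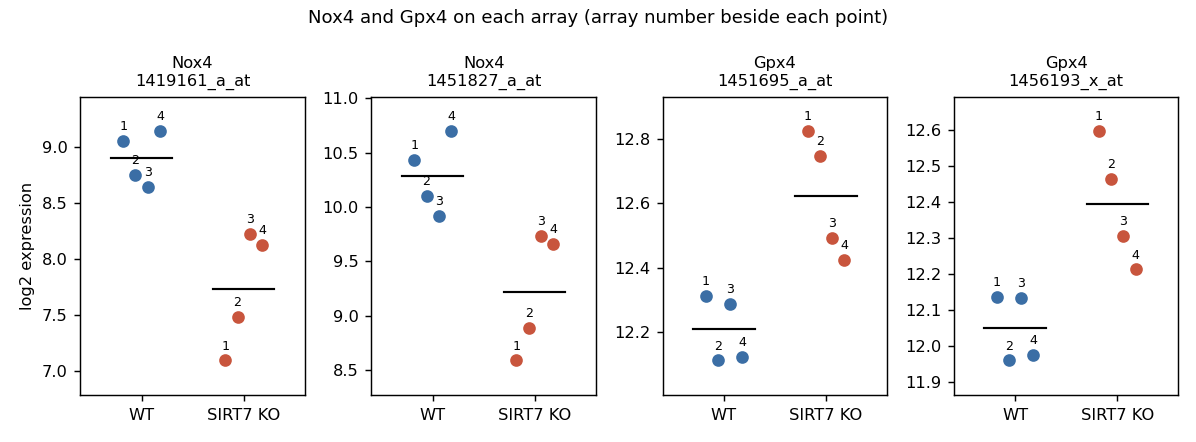
Log2 expression (vertical axis, a separate scale in each panel that does not start at 0) of the probe sets of Nox4 and Gpx4 in WT and SIRT7 KO livers (horizontal axis). Points are single arrays with the array number beside them, and black lines are group means. The groups do not overlap in any panel, and SIRT7 KO arrays 1 and 2 lie farthest from WT in each.

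These calls depended on single arrays. With all 8 arrays, 0 member probe sets passed a threshold of 0.05. Without SIRT7 KO arrays 3 and 4 and WT array 4, all 4 probe sets were called, with Nox4 at -1.53 and -1.41 (adjusted p = 0.0335 and 0.0381) and Gpx4 at 0.55 and 0.45 (adjusted p = 0.0938 and 0.141). These 3 arrays were chosen after seeing the data. SIRT7 KO arrays 3 and 4 were those nearest to WT in both genes, so larger differences follow from leaving them out. When 1 array was left out, the number of member probe sets called was 0 in the absence of WT array 1 or SIRT7 KO array 2, and 1 in the absence of WT array 2, WT array 4 or SIRT7 KO array 1. It was 2 when WT array 3 or SIRT7 KO array 4 was dropped, and 3 when SIRT7 KO array 3 was. Nox4 by 1419161_a_at passed in 6 of 8 such fits and was lost when WT array 1 or SIRT7 KO array 2 was dropped (highest adjusted p 0.189). By 1451827_a_at it passed in 2 of 8, those without WT array 3 or SIRT7 KO array 3 (highest 0.255). Gpx4 by 1451695_a_at passed in 2 of 8, those without SIRT7 KO array 3 or 4 (at most 0.23), and 1456193_x_at passed in 0 of 8 (at most 0.274). The sign held in each of these fits, with Nox4 between -1.33 and -0.86 and Gpx4 between 0.28 and 0.48.

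**Figure D3:**
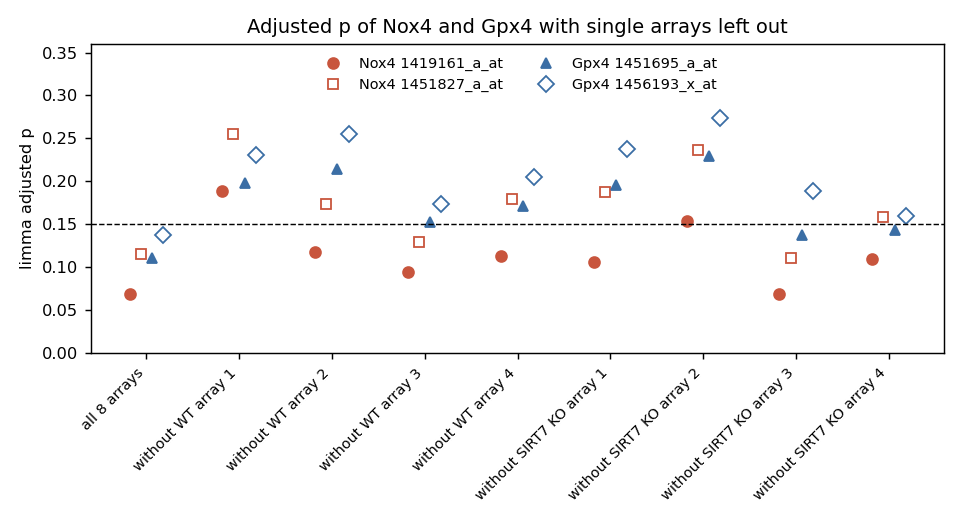
Adjusted p from limma (vertical axis) of the probe sets of Nox4 and Gpx4 with all 8 arrays and with each array left out in turn (horizontal axis). Red marks are Nox4, blue marks are Gpx4, and the dashed line is the threshold of 0.15. The Nox4 probe set 1419161_a_at lies under the line in 6 of 8 fits with an array left out, and the Gpx4 probe set 1456193_x_at in 0 of 8.

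In bulk tissue, fewer cells of a type and less RNA per cell cannot be told apart, so the markers of other cells are given beside Nox4 and Gpx4. Stellate cells and fibroblasts also use Nox4. Of 14 of their markers, 13 had a positive difference, 7 an unadjusted p under 0.05, and 3 rose and 0 fell, or 21.4% beside 2.17% of all genes called higher. The 3 were the matrix proteoglycan genes Lum (0.73, adjusted p = 0.0656) and Dcn (0.41, adjusted p = 0.103) and the smooth muscle actin gene Acta2 (0.61, adjusted p = 0.128). The mean log2 level of the 14 was between 7.18 and 7.49 in WT and between 7.56 and 7.92 in SIRT7 KO livers, and 1 marker stayed under 4.56, the lower quartile over the whole array. Of 12 endothelial markers, 1 rose (Lyve1, 1.21, adjusted p = 0.0463) and 1 fell (Stab1, -0.30, adjusted p = 0.132), with a mean level of 7.91 to 8.05 in WT and 7.94 to 8.08 in SIRT7 KO. Of 7 measured markers of erythroid cells, which are rich in catalase and peroxidases, 0 passed in limma (1 at an unadjusted p under 0.05), with a mean level of 5.39 to 5.94 in WT and 5.51 to 5.79 in SIRT7 KO. Of 4 measured adipose markers, Cidec alone rose (from 3.90 to 5.89, adjusted p = 0.141), and it is a lipid droplet gene that fatty hepatocytes also express. The mean level of this list was 4.11 to 4.25 in WT and 4.23 to 4.96 in SIRT7 KO, and Adipoq and Lep, the genes that define adipose tissue, stayed below that quartile on every array. Cidec was at 7.36 and 6.67 on SIRT7 KO arrays 1 and 2 and at 4.32 and 5.23 on arrays 3 and 4, beside 3.66 to 4.09 in WT, so the arrays with the most Cidec were those with the least Nox4 and the most Gpx4. The part of these cell types and of the level of hepatocyte markers in the changes of Nox4 and Gpx4 was not tested.

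Cyba and Cybb encode the partner subunits of membrane-bound NADPH oxidase. Cyba is p22phox, which both NOX2 and NOX4 need, and Cybb is the catalytic subunit of NOX2. Neither passed the test. Cyba was at 7.22, 8.13, 7.67 and 6.86 in WT and at 7.70, 7.26, 7.78 and 7.90 in SIRT7 KO livers, a difference of 0.19 ± 0.25 (SE, 95% interval -0.38 to 0.76, limma adjusted p = 0.791). Cybb was at 5.98, 7.43, 6.49 and 5.39 in WT and at 6.87, 6.23, 7.01 and 7.31 in SIRT7 KO livers, a difference of 0.53 ± 0.40 (SE, 95% interval -0.36 to 1.42, adjusted p = 0.595). The groups overlapped fully in both genes, and WT arrays 2 and 4 held the highest and the lowest value of all 8. Cybb had the widest range among the WT arrays of all member probe sets, 2.04 on the log2 scale. The interval for Cybb leaves room for a rise as large as the fall of Nox4. Without SIRT7 KO arrays 3 and 4 and WT array 4 the differences turned to -0.19 for Cyba and -0.087 for Cybb, and without WT array 4 that of Cyba was -0.012.

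Cyba and Cybb varied with the level of macrophage markers in each liver, across the genotypes. The mean log2 level of 18 macrophage and Kupffer cell markers, which include neither gene, was 8.51, 9.47, 8.77 and 8.39 on WT arrays 1 to 4 and 8.76, 8.62, 9.44 and 9.27 on SIRT7 KO arrays 1 to 4. Over the 8 arrays Cybb rose with this level (Pearson r = 0.905, exact permutation p = 0.00193, Spearman rho = 0.952, exact permutation p = 0.00114, two-sided), and so did Cyba (r = 0.888, p = 0.00531, and rho = 0.952, p = 0.00114, both exact permutation). Over the 2 relations computed, the Benjamini-Hochberg adjusted exact permutation p-values of r were 0.00386 and 0.00531 and those of rho 0.00114 for both. Without WT array 2 and SIRT7 KO array 3, which are the arrays farthest from the median marker level, r was 0.931 for Cybb and 0.894 for Cyba. After the mean of each genotype was subtracted, r was 0.898 for Cybb and 0.88 for Cyba, and a single genotype has too few arrays for a value of its own. Of the 18 macrophage markers 0 passed in limma (0 at an unadjusted p under 0.05), and 16 of 18 were higher in SIRT7 KO livers on average. Markers of neutrophils and monocytes had a mean level of 8.46, 7.93 and 7.82 on WT arrays 2 and 3 and SIRT7 KO array 4. On the other 5 arrays it was at most 6.25. As with the macrophage markers, WT array 2 was the highest and WT array 4 the lowest. A correlation of Cyba and Cybb with this level was not computed. Of the 13 neutrophil and monocyte markers measured, 0 passed in limma (0 at an unadjusted p under 0.05), and 1 stayed below that quartile. Whether macrophages, neutrophils or monocytes carry the Cyba and Cybb signal was not tested.

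**Figure D4:**
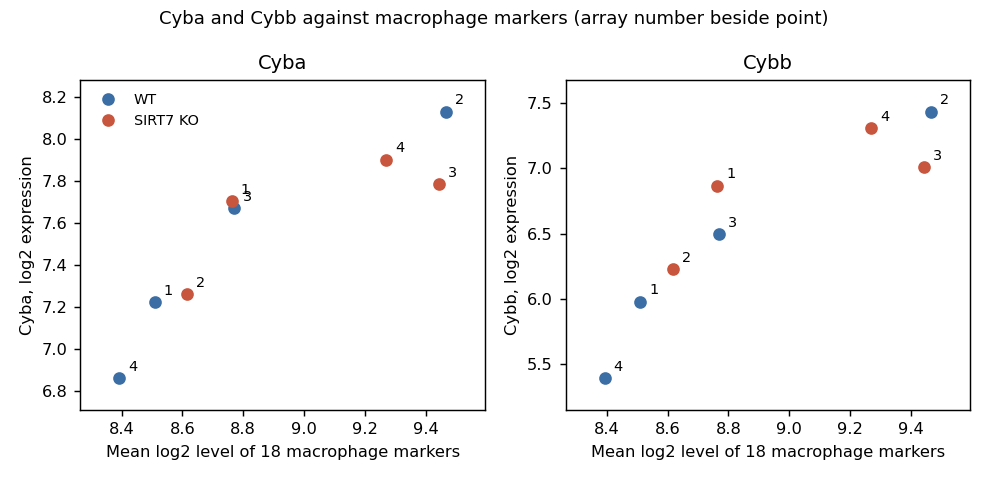
Log2 expression of Cyba and Cybb (vertical axes) against the mean log2 level of 18 macrophage markers (horizontal axes) on 8 arrays. Each point is an array with its number beside it. Both genes rise with the marker level (r = 0.888 for Cyba and 0.905 for Cybb), and the WT and SIRT7 KO arrays lie along the same course, with WT array 4 lowest and WT array 2 highest.

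None of the other genes that assemble or drive NADPH oxidases passed the test. Of 8 measured, limma called 0 (0 at an unadjusted p under 0.05). The smallest p-values were those of Cybc1, a chaperone of the NOX2 subunits (-0.18 ± 0.12 SE, adjusted p = 0.563), and of the cytosolic NOX2 subunits Ncf4 (-0.35 ± 0.32 SE, adjusted p = 0.678) and Ncf1 (-0.16 ± 0.15 SE, adjusted p = 0.698). The fall of Nox4 was therefore not accompanied by a call for another subunit measured here.

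The superoxide dismutases and catalase did not pass the test by any of their 9 probe sets, with 0 called by limma and 0 at an unadjusted p under 0.05. Their differences ran from -0.19 to 0.11. Sod1, the copper and zinc enzyme of the cytosol, was at 13.51, 13.46, 13.42 and 13.34 in WT and at 13.44, 13.45, 13.24 and 13.28 in SIRT7 KO livers by its brighter probe set, and the groups overlapped. Its difference was -0.080 ± 0.075 (SE, 95% interval -0.25 to 0.089, limma adjusted p = 0.686), and by the dimmer probe set it was -0.15 ± 0.086 (SE, adjusted p = 0.469). Sod2, the manganese enzyme of mitochondria, was at 12.34, 12.22, 12.31 and 12.22 in WT and at 12.33, 12.20, 12.08 and 12.04 in SIRT7 KO livers. SIRT7 KO array 1 lay at the WT level and arrays 2, 3 and 4 lay below all WT arrays, so the order among the SIRT7 KO livers was not that of Nox4. The 3 probe sets of Sod2 had the same sign, at -0.11 ± 0.079 (SE, 95% interval -0.29 to 0.066, adjusted p = 0.574), -0.12 ± 0.074 (SE, adjusted p = 0.488) and -0.19 ± 0.15 (SE, adjusted p = 0.618).

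Sod3, the secreted dismutase of the extracellular space, was dim. Its probe sets ran from 5.26 to 5.63 in WT and from 5.07 to 6.01 in SIRT7 KO livers, with SIRT7 KO array 1 the highest in both. Its differences of 0.020 ± 0.17 (SE, 95% interval -0.35 to 0.39, limma adjusted p = 0.972) and 0.11 ± 0.15 (SE, adjusted p = 0.797) turned negative without SIRT7 KO array 1 (-0.14 and -0.017), and the first also without WT array 1 (-0.0045) or WT array 4 (-0.028). Cat, the peroxisomal enzyme that splits hydrogen peroxide without a cofactor to reduce it, was at 13.79, 13.73, 13.58 and 13.74 in WT and at 13.69, 13.85, 13.81 and 13.92 in SIRT7 KO livers. Of these SIRT7 KO values, 3 were above all WT values and 1 was within them. The difference was 0.11 ± 0.075 (SE, 95% interval -0.063 to 0.27, adjusted p = 0.576), and 0.11 ± 0.097 (SE, adjusted p = 0.649) by its other probe set. The intervals of the brighter probe sets of Sod1, Sod2 and Cat thus exclude a measured change of the size of Nox4 in either direction. Whether saturation narrowed the differences of these bright probe sets was not tested.

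Of the glutathione peroxidases, Gpx4 was the only gene called, while Gpx1 and Gpx3 were not (limma, 0 of their 2 probe sets, 0 at an unadjusted p under 0.05). Gpx1, the main cytosolic peroxidase of the liver, was at 14.47, 14.45, 14.46 and 14.56 in WT and at 14.47, 14.47, 14.43 and 14.39 in SIRT7 KO livers. It had the narrowest range among the SIRT7 KO arrays of all member probe sets (0.077), and its difference was -0.042 ± 0.060 (SE, 95% interval -0.18 to 0.092, adjusted p = 0.809). Saturation at such high levels was not tested. Gpx3, the peroxidase of plasma, was at 5.95, 5.92, 5.90 and 5.86 in WT and at 5.84, 5.65, 6.45 and 5.97 in SIRT7 KO livers. The WT arrays were even and SIRT7 KO array 3 stood above the rest, and the difference of 0.072 ± 0.15 (SE, 95% interval -0.26 to 0.40, adjusted p = 0.871) was -0.085 without that array. A test of Gpx4 against Gpx1 or Gpx3 was not made.

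**Figure D5:**
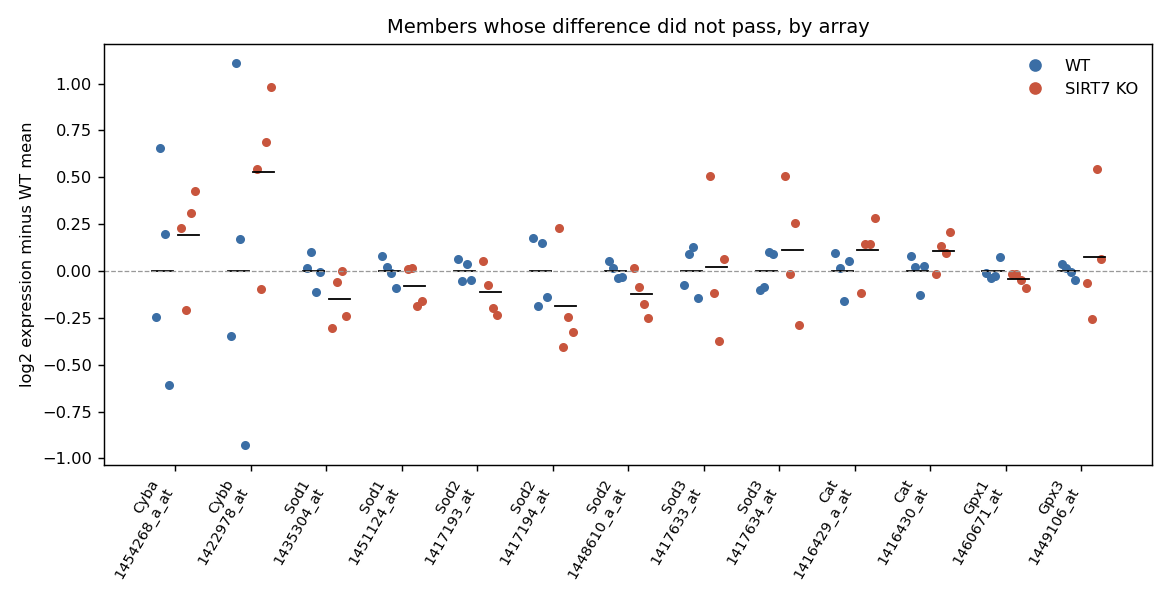
Log2 expression of the 13 member probe sets that did not pass (horizontal axis), with the mean of the WT arrays taken off (vertical axis). A point is 1 array, blue for 4 WT and red for 4 SIRT7 KO livers, and black lines are group means. The groups overlap in every probe set, and Cybb has the widest WT range, 2.04.

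Genes that supply selenium or build selenoproteins were examined beside the 3 peroxidases. Of 18 measured, 0 rose and 2 fell, by the probe set with the highest mean, which is 11.1% beside 2.48% of all genes called lower. Sephs2, the selenoprotein that makes selenophosphate for selenocysteine synthesis, fell by 0.24 ± 0.066 (SE, limma adjusted p = 0.138). It was at 13.33, 13.25, 13.31 and 13.22 in WT and at 13.01, 13.02, 13.15 and 12.98 in SIRT7 KO livers, without overlap, and its other 2 probe sets were not called (-0.15 and -0.014). Its relative Sephs1, which lacks selenocysteine, fell by 0.38 ± 0.11 (SE, adjusted p = 0.143), with SIRT7 KO array 2 (5.53) reaching the WT range of 5.53 to 5.77. Selenos, a selenoprotein of the ER membrane, missed the threshold (-0.25 ± 0.072 SE, adjusted p = 0.153). It passed with trend and robust variance (adjusted p = 0.128), array weights (0.134), quantile normalization (0.144) and the filter on dim probe sets (0.134). The fit of the brightest probe sets (0.143) and that without WT array 3 (0.144) also called Selenos lower. The calls of Sephs2 and Sephs1 each held in 1 of 8 fits with an array left out (adjusted p of at most 0.296 and 0.287). Both calls were lost without SIRT7 KO arrays 3 and 4 and WT array 4 (-0.28, adjusted p = 0.228 for Sephs2, and -0.26, adjusted p = 0.482 for Sephs1), and that of Sephs1 also with array weights or median centring (adjusted p = 0.164 for each). With the array number fitted as a block, both were lost as well (adjusted p = 0.232 for Sephs2 and 0.165 for Sephs1). No gene of this list was called higher, as Gpx4 was.

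Other oxidases that make hydrogen peroxide fell or did not pass. Of 16 measured, 0 rose and 2 fell, or 12.5% beside 2.48% of all genes. Pipox, the peroxisomal oxidase of pipecolic acid and sarcosine, was at 11.86, 11.74, 11.70 and 11.61 in WT and at 11.22, 11.25, 11.39 and 11.33 in SIRT7 KO livers. It fell by 0.43 ± 0.075 (SE, limma adjusted p = 0.0487) and passed in 8 of 8 fits with an array left out (at most 0.134). Aox3, an aldehyde oxidase of the liver, fell by 0.59 ± 0.14 (SE, adjusted p = 0.093), from 13.30, 13.25, 13.03 and 13.54 to 12.50, 12.48, 12.87 and 12.91. As with Nox4, SIRT7 KO arrays 1 and 2 were the lowest in both Pipox and Aox3. The call of Aox3 was lost without WT array 1 or 2 or SIRT7 KO array 1 or 2 (at most 0.215). Pipox and Aox3 were both called without SIRT7 KO arrays 3 and 4 and WT array 4 (adjusted p = 0.0815 and 0.0626). In these genes too, that choice left out the SIRT7 KO arrays nearest to WT. The polyamine oxidase gene Smox had the next smallest p (0.20 ± 0.084 SE, adjusted p = 0.294).

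Among the other peroxidases and the thioredoxin and glutathione systems, 24 genes were measured, of which 1 rose and 3 fell, or 4.17% and 12.5% beside 2.17% and 2.48% of all genes. Srxn1, the sulfiredoxin that restores overoxidised peroxiredoxins, rose by each of its 4 probe sets, by 0.35 to 0.95, and its brightest probe set went from 7.98, 7.96, 8.15 and 7.20 in WT to 8.85, 8.99, 8.66 and 8.61 in SIRT7 KO livers (0.95 ± 0.19 SE, limma adjusted p = 0.0653). That probe set passed in 8 of 8 fits with an array left out. Gclm, the modifier subunit of the enzyme that limits glutathione synthesis, fell by 0.30 ± 0.070 (SE, adjusted p = 0.0948), and Prdx4, the peroxiredoxin of the ER, fell by 0.28 ± 0.076 (SE, adjusted p = 0.129) at its brightest probe set, with -0.084 and 0.081 at the other 2, which were not called. Txnrd3, a thioredoxin reductase and a selenoprotein, fell by 2 of 3 probe sets (-0.43, adjusted p = 0.149, and -0.33, adjusted p = 0.105), and the third was at -0.40 (adjusted p = 0.158). Gclm passed in 3 of 8 fits with an array left out (at most 0.227), and Prdx4 and the brightest Txnrd3 probe set in 1 of 8 each (at most 0.277 and 0.311). When SIRT7 KO arrays 3 and 4 and WT array 4 were dropped together, the calls of Gclm (adjusted p = 0.352), Prdx4 (adjusted p = 0.351) and both Txnrd3 probe sets (adjusted p = 0.419 and 0.262) were lost, and the brightest Txnrd3 probe set went to -0.23. In that fit 3 of the 4 Srxn1 probe sets were still called, and the one at 0.35 was not (adjusted p = 0.31). With the array number fitted as a block (the replicate block), Gclm (adjusted p = 0.159) and Prdx4 (adjusted p = 0.227) were lost. Both Txnrd3 probe sets were lost in that fit too (adjusted p = 0.172 and 0.154). Prdx4 was also lost with median centring (adjusted p = 0.161). The brightest Txnrd3 probe set was also lost with quantile normalization (adjusted p = 0.176) and median centring (adjusted p = 0.16), and the other one with quantile normalization (adjusted p = 0.156).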

How the data were processed

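Total RNA from 4 WT and 4 SIRT7 KO mouse livers was measured on biotin-labelled Affymetrix mouse arrays. The authors deposited log2 expression, 1 value for each probe set and array. RMA is named in the paper's methods and GCRMA in the submitters' processing notes. Which of them made the values is not settled, and no version is given in the sources used. The 2 methods treat background differently, so differences of dim probe sets such as Sod3, Gpx3 and Sephs1 can depend on that choice. The values were used as deposited. Of 22690 probe sets, 64 controls were left out and 22626 tested. Platform annotation gave 1 symbol for 20380, several for 691 and none for 1555, and of the first 20351 matched the GRCm38.p6 gene table by Entrez ID.

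The genotypes were compared by limma 3.58.1 in R 4.3.3 (lmFit and eBayes, genotype only, two-sided, Benjamini-Hochberg over all probe sets, threshold 0.15), after a test on simulated data. Gene counts of lists use the brightest probe set of each gene. Correlations used exact permutations in Python 3.11.15. The precision is limited by the 8 arrays. The members, lists, motifs and tests were chosen with earlier results of these data known. Text names all members, called genes of 4 further pathway lists with the 3 smallest p of each, and markers by count. Alternatives were a threshold of 0.05, trend and robust variance, array weights, quantile normalization, median centring, a filter on dim probe sets, the replicate block, the brightest probe set and leaving out arrays. Leaving out SIRT7 KO arrays 3 and 4 and WT array 4 together was chosen after seeing the data.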

Additional observations from a re-analysis of the deposited data

Results flagged for a closer look

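Of 70 sets of 4 arrays examined for a value far from the others, 1 stood out, which is fewer than the 1 in 20 that chance gives. The NOX2 subunit gene Ncf1, by its brighter probe set, was at 5.54 on SIRT7 KO array 4 and between 4.87 and 4.97 on the other SIRT7 KO arrays, with a gap of 0.854 of the range. On that array the mean level of neutrophil and monocyte markers was 7.82, and it was at most 6.25 on the other SIRT7 KO arrays. The part of neutrophils in this value was not tested.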

How the results depend on the processing

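The count of member probe sets called was 4 with array weights, quantile normalization, median centring and the filter on dim probe sets. It was also 4 without SIRT7 KO arrays 3 and 4 and WT array 4. With trend and robust variance it was 3, as Nox4 by 1451827_a_at was lost (limma adjusted p = 0.163). The count was 0 at a threshold of 0.05, 2 with the brightest probe set of each gene (Nox4 and Gpx4), and 0 to 3 with a single array left out. Over the whole array 975 probe sets were called, 156 at 0.05, 517 without SIRT7 KO arrays 3 and 4 and WT array 4, and 222 to 900 with a single array left out. With the replicate block 628 probe sets and 3 member probe sets were called, and Gpx4 by 1456193_x_at was lost (limma adjusted p = 0.175). Same-numbered arrays did not deviate together (correlations of -0.25 to 0.26, and 1 of 8 arrays matched best with its own number), so the numbers were not taken to pair them. Without SIRT7 KO arrays 3 and 4 and WT array 4, the sign turned for Cyba (-0.19), Cybb (-0.087), Gpx1 (0.010) and Gpx3 (-0.18), and Sod3 was at 0.27 by 1 probe set. With a single array left out, the differences ranged from -0.012 to 0.41 for Cyba, 0.22 to 0.90 for Cybb, -0.14 to 0.15 and -0.017 to 0.25 for the probe sets of Sod3, -0.055 to -0.017 for Gpx1, and -0.085 to 0.18 for Gpx3. The cause of these turns was not tested. Quantile normalization and median centring moved the median of all differences by -0.0029 and -0.0044. The arrays carry no detection calls, so dim values are not bounded from below.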
